A study of Mus musculus with 8 samples.

Results

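The genes described here are 10 members of the Bcl2 family, the proteins that set whether a cell keeps its mitochondria intact or dies by apoptosis. They were taken by name: the pro-survival genes Bcl2, Bcl2l1 (Bcl-xL) and Mcl1, the effectors Bax and Bak1, and the BH3-only genes Bcl2l11 (Bim), Bbc3 (Puma), Pmaip1 (Noxa), Bid and Bad. They are 10 of the 56748 gene IDs counted in each library, and all 10 were among the 14942 genes that passed the filter on low counts. RNA was sequenced from resting bone marrow derived mast cells (BMMCs), differentiated in vitro with IL-3 from young C57BL/6 mice. The paper names both sexes as sources of its bone marrow cultures but gives no sex for single libraries. The 4 Mettl3-RNP libraries (genotype label Mettl3 KO) came from BMMCs electroporated with Mettl3 RNPs, which are Cas9 protein loaded with guide RNAs against Mettl3, and the 4 Pulsed libraries (genotype label Mettl3 WT) came from mock transfected BMMCs. Mettl3 is the enzyme that writes N6-methyladenosine (m6A) on mRNA. The Mettl3-RNP cultures were not cloned or sorted and hold cells that kept Mettl3. No Cas9 or guide RNA is named for the mock transfected control, so loss of Mettl3 and cutting by Cas9 cannot be told apart. The time between transfection and RNA extraction is not given in the sources used here. Both groups carry the replicate numbers 1 to 4, and the comparison was made within these 4 pairs.

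Apoptosis by the mitochondrial route is decided by binding between 3 classes of this family. The pro-survival proteins hold the effectors Bax and Bak1 in check, BH3-only proteins fill the groove of the pro-survival proteins or act on the effectors themselves, and freed effectors open the outer mitochondrial membrane so that cytochrome c leaves. Mast cells are long-lived cells whose survival depends on growth factors such as IL-3 and stem cell factor, and their withdrawal is a classical trigger of BH3-only proteins, Bim and Puma among them. Mcl1 mRNA and protein are short-lived, which lets the Mcl1 level follow signalling quickly, whereas much of the control of Bid and Bad takes place on the protein, by cleavage and by phosphorylation.

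Because Mettl3 methylates adenosines within short motifs, the transcripts of the 10 genes were searched for GGACT and for its relatives GGACA or GGACC, all of them forms of the m6A consensus. The windows of 25 bases shown here are from the sense strand of the 3 pro-survival transcripts, hold the GGACT nearest to the stop codon (in capitals), and are printed because these 3 genes had the smallest p-values of the 10.
Bcl2: ggtcttccatGGACTggagaaggga
Mcl1: gtgcaataggGGACTcttaaagctc
Bcl2l1: gaagagaataGGACTgaggccccag
The Bcl2 window lies at chr1:106470431-106470455 on the minus strand (GRCm39), and its A is 551 bases past the end of the stop codon. The Mcl1 window lies at chr3:95568143-95568167 on the plus strand, with the A 21 bases past the stop codon. The Bcl2l1 window lies at chr2:152671796-152671820 on the minus strand, within the coding sequence. The canonical transcripts held 24 such motifs in Bcl2, 12 in Mcl1, 10 in Bcl2l1, 15 in Bcl2l11, 13 in Bbc3, 6 in Pmaip1, 8 in Bax, 13 in Bak1, 9 in Bid and 6 in Bad. Per kb of transcript, Bax had the most at 8.20 and Pmaip1 the fewest at 2.20, beside a median of 3.55 over the 12056 protein-coding transcripts tested, of which 99.5% held at least 1. Such a match is a description of the letters and does not show that a site was methylated, and the median on the reverse strand was 3.01 per kb.

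The libraries held 32643260 to 45324826 counts. Expression is given in CPM, which scales each count to a library of 1000000 after TMM normalization. Mettl3 was measured at 12.3, 9.18, 4.88 and 9.21 CPM in Mettl3-RNP 1 to 4 and at 25.9, 24.5, 11.2 and 26.5 CPM in Pulsed 1 to 4. It was at 34.7% to 47.5% of its Pulsed partner in 4 of 4 pairs, a log2 fold change of -1.30 (SE 0.109, adjusted p = 0.00543 by the quasi-likelihood test of edgeR). Of its exon bases, 34.1% are shared with Tox4 on the opposite strand. Both libraries of replicate 3 stood apart from the rest. Across 16 immediate early genes, which answer to acute stimulation, the median log2 difference from the mean of the other numbers was 3.68 in Mettl3-RNP 3 and 3.55 in Pulsed 3, with 16 of 16 genes higher in each. The same median was -4.16 and -4.64 in the libraries of replicate 4, with 0 of 16 genes higher. The mast cell label was met in every library, with Kit at 3074 to 5042 CPM and Fcer1a at 2393 to 3212 CPM. The 10 mast cell markers summed to 38461 to 54191 CPM in Mettl3-RNP and 43410 to 61100 CPM in Pulsed. Their log2 fold changes ran from -0.37 to 0.30 with a median of 0.10, and 1 of them passed the test. That marker was Cpa3, a granule protease and the most abundant of the list. It fell by 0.37 on the log2 scale (SE 0.0699, adjusted p = 0.0328 by edgeR), lower in 4 of 4 pairs. The 5 basophil markers, some of which mast cells express too, summed to 540 to 857 CPM in Mettl3-RNP and 565 to 683 CPM in Pulsed. Log2 fold changes in this list ran from -0.85 to 0.25 with a median of -0.68, and Il18rap fell by 0.79 (adjusted p = 0.0324 by edgeR). Of the 8 macrophage markers, 2 could be tested, with a median of -0.92, and Adgre1 fell by 1.13 (adjusted p = 0.0435 by edgeR) from 2.53 ± 0.444 to 1.18 ± 0.370 CPM (SD, n = 4 each), while the whole list summed to 1.31 to 3.98 CPM in Mettl3-RNP and 2.52 to 4.57 CPM in Pulsed. Neutrophil markers summed to at most 0.398 CPM, with S100a8 and S100a9 at 0 counts, and erythroid markers to 5.59 to 10.8 CPM. The part of these markers in the values of the Bcl2 family was not tested. In RNA from a whole culture, fewer cells of a type and less RNA per cell cannot be told apart.

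No member of the family passed the test between Mettl3-RNP and Pulsed at an adjusted p of 0.05 or less by edgeR (0 of 10), a threshold that 3.74% of all tested genes passed, 351 upward and 208 downward. At an unadjusted p under 0.05 there were 4 of 10 members, beside 22.5% of all tested genes: Mcl1, Bcl2l1 and Bcl2l11 were on the higher side in Mettl3-RNP and Bcl2 on the lower side. When 1 replicate number was left out, 0 of 10 members passed in each of the 4 fits, beside 2.18%, 0.174%, 2.57% and 2.23% of all tested genes without numbers 1 to 4. At an unadjusted p under 0.05 there were then 3, 2, 4 and 2 of 10 members, beside 17.0%, 15.0%, 22.1% and 13.4% of all tested genes. Bcl2 was under 0.05 in 4 of these 4 fits, Mcl1 in 3, Bcl2l11 in 2, and Bcl2l1 and Bbc3 in 1 each. The median log2 fold change of the 10 members was 0.10 beside -0.00127 for all tested genes, and 7 members had a fitted value above 0. DESeq2 passed Mcl1, Bcl2l1 and Bcl2, 3 of 10, beside 11.7% of the genes it tested, and limma-voom passed 0 of 10 beside 4.30%. The groups overlapped in CPM for each of the 10 genes, and over all tested genes 3.23% did not overlap. The paired lines in the plot of CPM by library show how much of the spread lay between replicate numbers. For 6 of 10 members, the 4 pairs lay on the same side of 0, beside 31.7% of all tested genes.

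**Figure D1:**
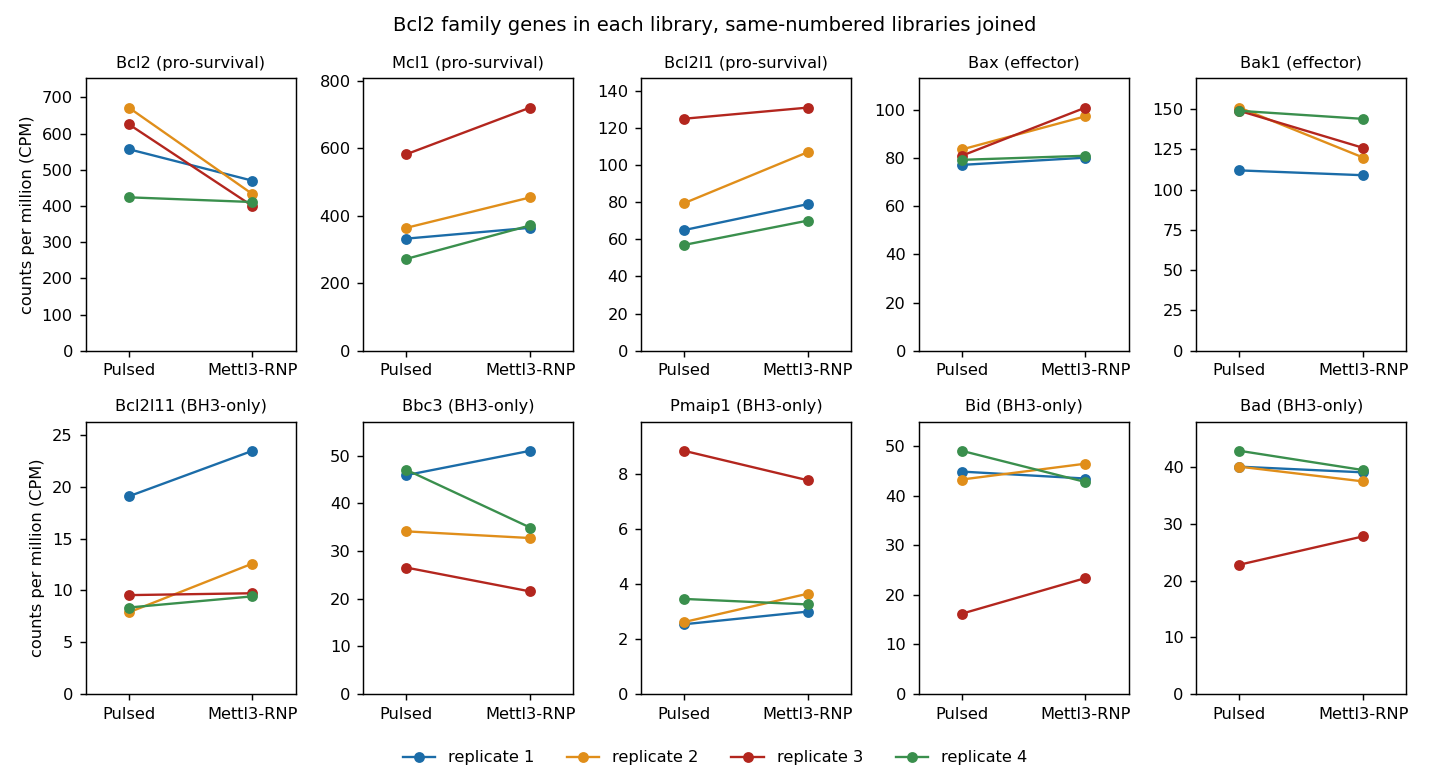
CPM of each of the 10 genes (vertical axes from 0, a scale for each gene) in the 4 Pulsed and 4 Mettl3-RNP libraries, with libraries of the same replicate number joined by a coloured line. Bcl2 ran from 424 to 672 CPM in Pulsed and from 400 to 470 CPM in Mettl3-RNP, and the lines of Mcl1 and Bcl2l1 slope upward in 4 of 4 pairs from very different starting levels.

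Bcl2, the founding pro-survival member, was the gene of the family with the most negative fitted value. The gene (ENSMUSG00000057329) spans 106465908 to 106642060 of chromosome 1, minus strand (GRCm39). Its level was 470, 433, 400 and 411 CPM in Mettl3-RNP 1 to 4 and 557, 672, 626 and 424 CPM in Pulsed 1 to 4. Pulsed 4 sat as low as the Mettl3-RNP libraries, and the other 3 Pulsed libraries were above all of them. Means were 429 ± 30.6 CPM (SD, n = 4) and 570 ± 108 CPM (SD, n = 4). The paired log2 differences were -0.25, -0.63, -0.65 and -0.04, below 0 in 4 of 4 pairs, and the fitted log2 fold change was -0.39 (SE 0.112, 95% interval -0.65 to -0.13, unadjusted p = 0.00810, adjusted p = 0.0900 by edgeR). In percent, the Mettl3-RNP level was 84.2%, 64.5%, 63.9% and 97.0% of the Pulsed partner. Without replicate 3 the log2 fold change was -0.31 with an adjusted p of 0.179, and DESeq2 gave an adjusted p of 0.00876 on all 4 pairs.

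Mcl1, the pro-survival member with the fastest turnover, had the smallest p-value of the family. The gene (ENSMUSG00000038612) spans 95566026 to 95570487 of chromosome 3, plus strand. It was measured at 364, 454, 720 and 371 CPM in Mettl3-RNP 1 to 4 and at 332, 364, 582 and 272 CPM in Pulsed 1 to 4. Replicate 3 was the highest of its group in both groups and replicate 4 of Pulsed the lowest library, yet the difference between partners kept 1 direction. The paired log2 differences were 0.13, 0.32, 0.31 and 0.45, and the fitted log2 fold change was 0.30 (SE 0.0747, 95% interval 0.13 to 0.48, unadjusted p = 0.00383, adjusted p = 0.0670 by edgeR). Leaving out replicate 3 kept the value at 0.30 with an adjusted p of 0.117. The adjusted p was 0.00211 by DESeq2 and 0.0471 by edgeR on genes with at least 10 counts in every library, where Mcl1 was the only member to pass beside 7.67% of the genes tested.

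Bcl2l1 encodes Bcl-xL, a pro-survival protein that keeps many blood cell types alive, and spans 152622582 to 152673655 of chromosome 2, minus strand (ENSMUSG00000007659). Its level was 79.0, 107, 131 and 70.1 CPM in Mettl3-RNP 1 to 4 and 65.0, 79.5, 125 and 57.0 CPM in Pulsed 1 to 4. Replicate 3 was again the highest in each group and replicate 4 the lowest. The paired log2 differences were 0.28, 0.43, 0.06 and 0.30, smallest in the pair with the highest level, and the fitted log2 fold change was 0.27 (SE 0.0783, 95% interval 0.09 to 0.45, unadjusted p = 0.00921, adjusted p = 0.0959 by edgeR). Without replicate 3 it was 0.34 with an unadjusted p of 0.00283 and an adjusted p of 0.0671, whereas without replicate 1, 2 or 4 it was 0.23, 0.21 and 0.27, with unadjusted p of 0.0629, 0.0559 and 0.0517. With 4 pairs, an exact permutation test that flips the signs of the differences (two-sided) cannot go below 2 of 16 assignments and so cannot reach a p of 0.05.

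**Figure D2:**
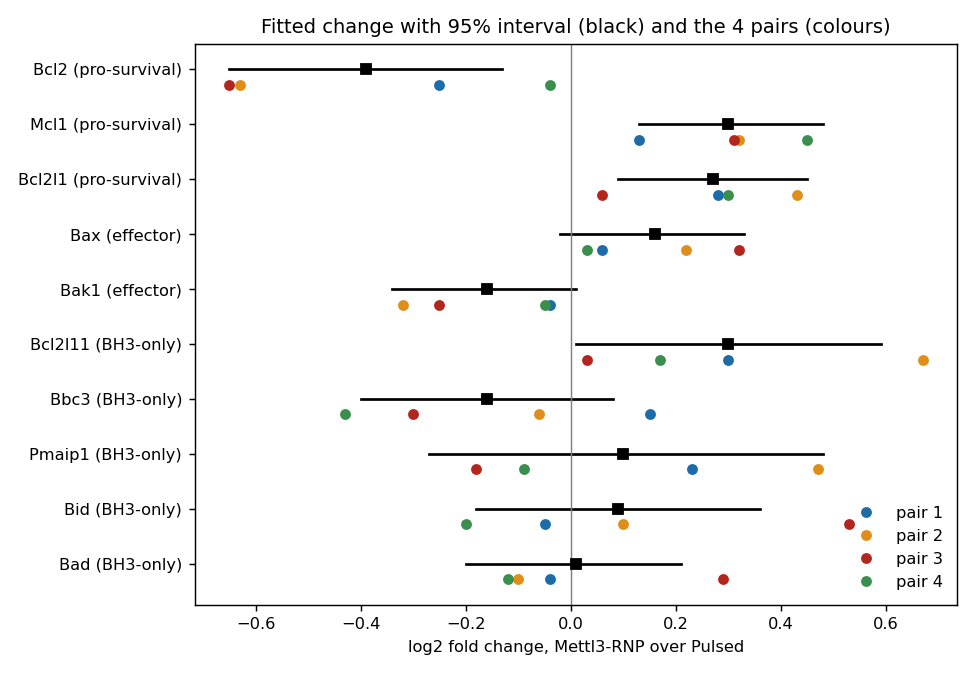
Log2 fold change of each gene, Mettl3-RNP over Pulsed (horizontal axis), as the edgeR estimate with its 95% interval (black square and bar) and as the 4 paired differences (coloured points). The intervals of Bcl2, Mcl1, Bcl2l1 and Bcl2l11 exclude 0 before adjustment for multiple testing, while Pmaip1, with an interval from -0.27 to 0.48, is the widest.

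Since Bcl2 and Mcl1 differed in sign, their balance was followed in each library on a per-length scale, CPM per kb of annotated exons, which allows levels of different genes to be compared. The ratio of Mcl1 to Bcl2 was 2.05, 2.77, 4.75 and 2.38 in Mettl3-RNP 1 to 4 and 1.57, 1.43, 2.45 and 1.69 in Pulsed 1 to 4. It was higher in the Mettl3-RNP library of 4 of 4 pairs, while Pulsed 3 exceeded Mettl3-RNP 1 and 4. This pair of genes was chosen after their values had been seen, so the ratio is a description with no test. The summed pro-survival level came to 171, 198, 275 and 165 CPM per kb in Mettl3-RNP 1 to 4 and to 168, 193, 259 and 135 CPM per kb in Pulsed 1 to 4, a mean of 202 ± 50.8 against 189 ± 52.5 (SD, n = 4 each), higher in Mettl3-RNP in 4 of 4 pairs and given with no test. As a share of the summed per-length level of the 10 genes, Mcl1 took 41.3 ± 7.22% in Mettl3-RNP and 34.8 ± 6.28% in Pulsed, and Bcl2 took 14.7 ± 2.86% and 19.8 ± 2.62% (SD, n = 4 each). The 3 pro-survival genes together took 61.6 ± 5.29% and 59.5 ± 7.03%.

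**Figure D3:**
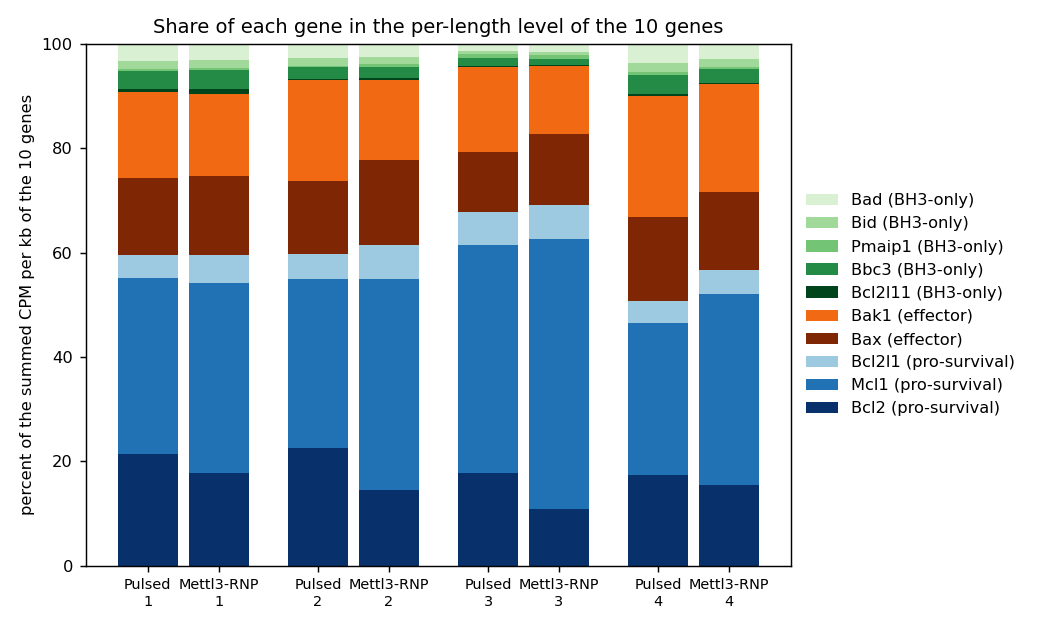
Stacked share of each gene in the summed CPM per kb of the 10 genes (vertical axis, percent) for the 8 libraries, ordered by replicate number. Blue segments are the pro-survival genes, brown and orange the effectors and green the BH3-only genes. The Bcl2 segment is smaller in the Mettl3-RNP library of each pair, by the least in pair 4, at 15.4% against 17.3%, and by the most in pair 2, at 14.6% against 22.6%.

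The effectors Bax and Bak1, which form the membrane pore, varied least of the 10 over the 8 libraries and had small fitted values on opposite sides of 0. Bax (ENSMUSG00000003873, chromosome 7 from 45111015 to 45116325, minus strand) was at 80.2, 97.4, 101 and 81.0 CPM in Mettl3-RNP 1 to 4 and at 77.2, 83.6, 81.0 and 79.3 CPM in Pulsed 1 to 4. Mettl3-RNP 2 and 3 were above every Pulsed library and the other 2 lay within the Pulsed range. The fitted log2 fold change of Bax was 0.16 (SE 0.0750, 95% interval -0.02 to 0.33, adjusted p = 0.267 by edgeR), with 4 of 4 pairs above 0. Bak1 (ENSMUSG00000057789, chromosome 17 from 27238784 to 27247983, minus strand) was at 109, 120, 126 and 144 CPM in Mettl3-RNP 1 to 4 and at 112, 151, 149 and 149 CPM in Pulsed 1 to 4. Pulsed 1 stood at the level of its Mettl3-RNP partner, well below the other 3 Pulsed libraries. The fitted log2 fold change of Bak1 was -0.16 (SE 0.0769, 95% interval -0.34 to 0.01, adjusted p = 0.254 by edgeR), with 4 of 4 pairs below 0. The summed effector level was 100 ± 8.03 CPM per kb in Mettl3-RNP and 101 ± 9.08 in Pulsed (SD, n = 4 each).

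Among the BH3-only genes, Bcl2l11 and Bbc3 encode Bim and Puma, potent death inducers that bind all the main pro-survival proteins. Bcl2l11 (ENSMUSG00000027381, chromosome 2 from 127967958 to 128004476, plus strand) was at 23.5, 12.6, 9.73 and 9.43 CPM in Mettl3-RNP 1 to 4 and at 19.1, 7.88, 9.55 and 8.35 CPM in Pulsed 1 to 4. Both libraries of replicate 1 were the highest of their group, and the partners of replicate 3 were nearly equal. The paired log2 differences were 0.30, 0.67, 0.03 and 0.17, and the fitted log2 fold change was 0.30 (95% interval 0.01 to 0.59, unadjusted p = 0.0451, adjusted p = 0.213 by edgeR). Without replicate 2 it was 0.17, and with replicate 3 left out it was 0.38. Bbc3 (ENSMUSG00000002083, chromosome 7 from 16042318 to 16052130, plus strand) was at 51.0, 32.7, 21.5 and 34.9 CPM in Mettl3-RNP 1 to 4 and at 45.9, 34.1, 26.5 and 47.0 CPM in Pulsed 1 to 4. Replicate 3 was the lowest of each group, and 1 of 4 pairs was above 0. The fitted log2 fold change of Bbc3 was -0.16 (SE 0.104, 95% interval -0.40 to 0.08, adjusted p = 0.423 by edgeR), and it was -0.30 without replicate 1 and -0.06 without replicate 4.

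Pmaip1 (ENSMUSG00000024521, chromosome 18) encodes Noxa, which binds chiefly Mcl1 and leads it to degradation. It was the least counted member, with 90 to 355 counts in a library, and was at 2.99, 3.64, 7.76 and 3.25 CPM in Mettl3-RNP 1 to 4 and at 2.53, 2.61, 8.83 and 3.45 CPM in Pulsed 1 to 4. Replicate 3 was more than 5 CPM in both groups and the other 6 libraries were below 4 CPM. Its log2 fold change was 0.10 (SE 0.161, 95% interval -0.27 to 0.48, adjusted p = 0.766 by edgeR), with pairs on both sides of 0, and it turned to -0.03 without replicate 2.

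Bid, a BH3-only protein that caspase-8 cleaves and so links death receptors to mitochondria, was at 43.5, 46.5, 23.4 and 42.8 CPM in Mettl3-RNP 1 to 4 and at 44.9, 43.3, 16.2 and 49.1 CPM in Pulsed 1 to 4. The gene (ENSMUSG00000004446) spans 120862525 to 120894171 of chromosome 6, minus strand. The libraries of replicate 3 were far below the others in both groups. The fitted log2 fold change was 0.09 (SE 0.117, 95% interval -0.18 to 0.36, adjusted p = 0.713 by edgeR), and it was -0.05 without replicate 3. Bad, which growth factor signalling keeps inactive by phosphorylation, spans 6918902 to 6929280 of chromosome 19, plus strand (ENSMUSG00000024959). It was at 39.1, 37.5, 27.8 and 39.5 CPM in Mettl3-RNP 1 to 4 and at 40.1, 40.1, 22.8 and 42.9 CPM in Pulsed 1 to 4. Replicate 3 was the lowest here too, and the only pair with the Mettl3-RNP library above its partner. The log2 fold change of Bad was 0.01 (SE 0.0884, 95% interval -0.20 to 0.21, adjusted p = 0.978 by edgeR).

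The larger pattern in most of these genes was the replicate number rather than the transfection. Of the variance of log2 CPM over the 8 libraries, 85.8% to 95.1% lay between replicate numbers for Mcl1, Bcl2l1, Bcl2l11, Bbc3, Pmaip1, Bid and Bad, beside a median of 78.3% over all tested genes. Bcl2 was the member with the smallest such share, 25.8%, and 51.9% of its variance lay between the groups, beside a median of 5.68% over all tested genes. Bax followed with 47.6% between numbers and 33.3% between groups, and Bak1 with 68.3% between numbers. Replicate number has more levels than group, so noise alone would give it the larger share. The log2 difference of replicate 3 from the mean of the other numbers was 0.87 and 0.86 for Mcl1, 0.64 and 0.91 for Bcl2l1, and 1.23 and 1.62 for Pmaip1 in Mettl3-RNP and Pulsed. On the other side it was -0.91 and -1.49 for Bid, -0.48 and -0.85 for Bad, and -0.85 and -0.66 for Bbc3. In the same libraries the immediate early genes were high, as given above, and their part in these differences was not tested. Replicate 1 was set apart by Bcl2l11 alone among the 10 by more than 1 log2 unit, with differences of 1.16 and 1.15 in Mettl3-RNP and Pulsed.

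**Figure D4:**
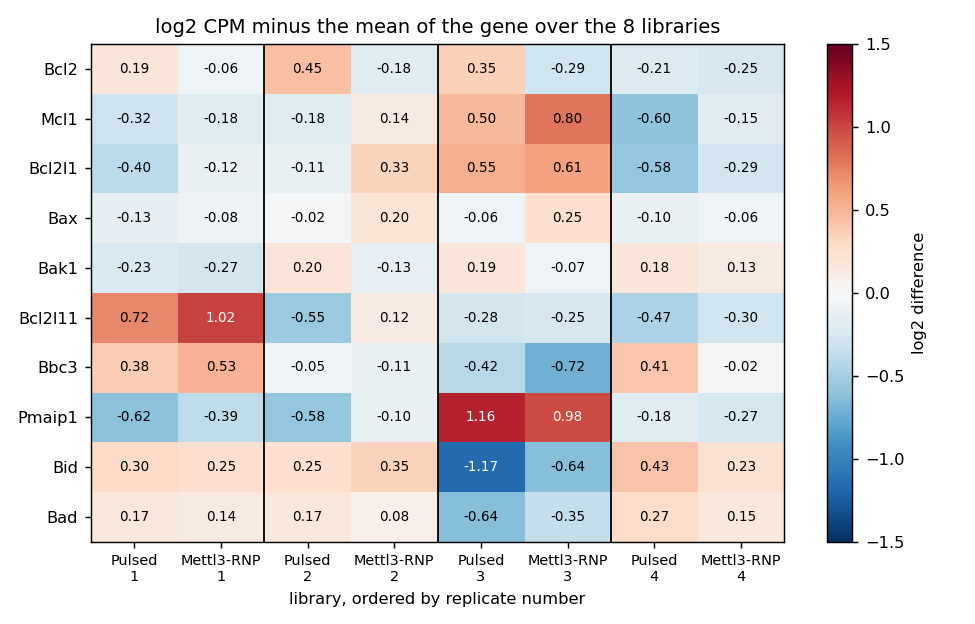
Log2 CPM of each gene minus its mean over the 8 libraries (colour and printed value), with libraries ordered by replicate number and black lines between numbers. Pmaip1 reaches 1.16 and 0.98 and Bid -1.17 and -0.64 in Pulsed 3 and Mettl3-RNP 3, whereas Bcl2 is above 0 in Pulsed 1 to 3 and below 0 in the Mettl3-RNP libraries.

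Profiles over the 8 libraries were also compared with those of 10737 other protein-coding genes by the root mean square distance of centred log2 CPM. For Pmaip1, the member with the largest spread (0.640), the nearest profiles were Usp49 at 0.0909, Sp2 at 0.129 and Mphosph6 at 0.151. For Bax, the member with the smallest spread (0.135), they were BC031181 at 0.0554, Grk6 at 0.0581 and Dxo at 0.0615. Within the family, Mcl1 was the third nearest of all these genes to Bcl2l1, at 0.118, a neighbour singled out after the distances had been seen. All of these profiles share the same libraries and thus the strong differences between replicate numbers.

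On the per-length scale Mcl1 was the most abundant member, with a mean of 124 ± 42.6 CPM per kb (SD over the 8 libraries), and exceeded the next gene in 8 of 8 libraries. Bak1 at 55.0 ± 7.36, Bcl2 at 54.2 ± 11.4 and Bax at 45.8 ± 4.81 CPM per kb followed, and Bak1 exceeded Bcl2 in only 4 of 8 libraries. With the length of the longest transcript in place of all annotated exons, Bax came to 77.3, Bcl2 to 68.9 and Bak1 to 55.5 CPM per kb, so the order of these 3 is not settled by these data. Bcl2l1 at 17.4 ± 5.47 CPM per kb of all exons exceeded Bad at 8.08 ± 1.57 in 8 of 8 libraries, and Bad and Bbc3, at 7.66 ± 2.17, traded places between libraries. With the length of the longest transcript the means of these 3 were 25.4, 16.3 and 13.7 CPM per kb, and in Pulsed 4 Bcl2l1 at 16.2 lay below Bad at 19.3 and Bbc3 at 17.5. Bid at 3.95 ± 1.22, Pmaip1 at 1.60 ± 0.900 and Bcl2l11 at 1.24 ± 0.566 CPM per kb were the lowest, and with the longest transcript the last of these changed order, Pmaip1 at 1.60 and Bcl2l11 at 2.45. The 5 BH3-only genes together held 4.24% to 9.96% of the summed per-length level of the family in a library, with the lowest shares in Mettl3-RNP 3 and Pulsed 3, and 6.34% to 15.0% with the length of the longest transcript.

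The 10 genes also differ in their structure. The canonical transcript of Bcl2 has 2 exons and 0.138 exon junctions per kb, at percentile 2.33 of the protein-coding genes tested, and Mcl1 and Bcl2l1 lie at percentiles 9.63 and 10.3. Bax, with 6 exons in 976 bases and 5.12 junctions per kb, lies at percentile 85.1, beside a median of 2.62 junctions per kb. Exons of Bid share 31.2% of their bases with Bcl2l13, those of Bad 25.2% with the lncRNA Gm56656 and 20.4% with Gpr137, and those of Bak1 18.2% with Ggnbp1, all on the opposite strand. Because the strand setting of the counting is not stated, reads of such overlaps may belong to either gene, which holds for the overlap of Mettl3 and Tox4 too. Exons of Bax share 10.3% of their bases with the predicted gene Gm45808 on the same strand. Mcl1, Bbc3 and Pmaip1 overlap no other annotated exon. The 250 bases before 15 RefSeq starts of 9 members (GRCm38.p6, all but Pmaip1, some overlapping) were searched on both strands for 3 motifs chosen after the values had been seen. TGACG was in 2 of the 15, 1 of Bcl2 and 1 of Bbc3, beside 17.8% of all 32851 promoters. TTCNNNGAA and CCGGAAGT were in 0 of 15, beside 7.02% and 2.88% of all promoters.

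Of 15 further Bcl2 family genes, 8 were expressed enough to be tested and 0 passed by edgeR, with 1 at an unadjusted p under 0.05, and their median log2 fold change was -0.01. Over all tested genes, 3.74% passed and 22.5% had an unadjusted p under 0.05, and the counts of the lists given next stand beside the same shares. Bcl2l2 (Bcl-w), a pro-survival relative, was at 34.1 to 53.7 CPM with a log2 fold change of -0.01 (SE 0.101). The pro-survival Bcl2a1 genes had at most 6 counts in a library, although their near identical copies can lose reads in counting. Bmf, a BH3-only gene, was at 24.7, 14.0, 4.21 and 11.1 CPM in Mettl3-RNP 1 to 4 and at 32.1, 14.9, 3.85 and 10.7 CPM in Pulsed 1 to 4, the lowest in replicate 3 and the highest in replicate 1 of each group, with a log2 fold change of -0.09 (SE 0.113). Bik was higher in 4 of 4 pairs but rested on 16 to 70 counts, with a log2 fold change of 0.72 (SE 0.403, adjusted p = 0.345 by edgeR).

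Downstream of the family, 0 of 22 genes of the apoptosome, caspases and their inhibitors passed by edgeR, with 5 at an unadjusted p under 0.05 and a median log2 fold change of -0.07. Upstream, 1 of 33 genes that control the family passed, and 14 of the 33 had an unadjusted p under 0.05, with a median of -0.12. A 34th, Ddit3, carries its symbol on more than 1 gene ID and was left out. The gene that passed was Pim3, a kinase whose family phosphorylates Bad, at 24.9, 61.3, 188 and 15.1 CPM in Mettl3-RNP 1 to 4 and 38.5, 87.3, 250 and 20.1 CPM in Pulsed 1 to 4. Pim3 fell in Mettl3-RNP by 0.49 on the log2 scale (SE 0.0708, adjusted p = 0.0184 by edgeR), lower in 4 of 4 pairs, over a range set mostly by the replicate number. For comparison, 3 of 13 tested genes of the extrinsic, death receptor route rose and 0 fell, with a median of 0.31. These were the receptors Tnfrsf21 at a log2 fold change of 0.55 (adjusted p = 0.0165) and Ltbr at 0.79 (adjusted p = 0.0237), and the adaptor Tradd at 0.57 (adjusted p = 0.0340), each higher in 4 of 4 pairs by edgeR. Of 23 tested p53 targets outside the family, Gdf15 alone passed, at a log2 fold change of 1.63 (SE 0.326, adjusted p = 0.0374 by edgeR), and the median of the list was 0.11. Summed over that list, replicate 3 reached 2957 CPM in Mettl3-RNP and 2976 CPM in Pulsed, beside 1192 to 1521 CPM in the other libraries. The immediate early genes were high in the same libraries, and what raised this sum was not tested. The p53-responsive members Bbc3, Pmaip1 and Bax had log2 fold changes of -0.16, 0.10 and 0.16, none past the threshold.

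Whether a member passed depended on the tool and on the filter. A correction of log2 CPM for the replicate numbers by removeBatchEffect, the function the study's methods name, followed by limma-trend on the group alone, passed 6 of 10 members, Mcl1, Bcl2l1, Bcl2l11 and Bax higher and Bcl2 and Bak1 lower. This route does not count the degrees of freedom spent on the replicate numbers, and it passed 30.5% of all tested genes. The fitted values themselves moved little across tools and scalings, as the plot of fits shows, and more when a replicate number was left out.

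**Figure D5:**
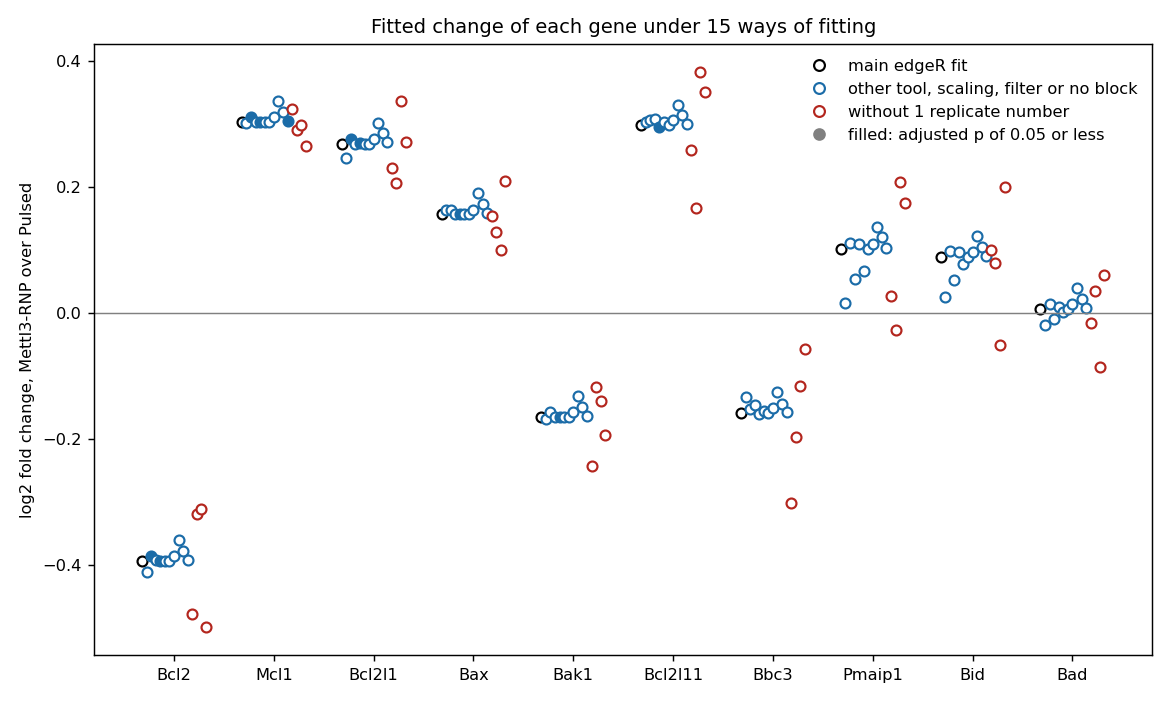
Log2 fold change of each gene, Mettl3-RNP over Pulsed (vertical axis), in the main edgeR fit (black), with other tools, scalings, filters or no block (blue) and without 1 replicate number (red), 15 fits in all, filled where the adjusted p is 0.05 or less. Bcl2 stays between -0.50 and -0.31 and Mcl1 between 0.26 and 0.34, whereas Pmaip1, Bid and Bad cross 0.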

How the data were processed

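The deposited files hold whole-number counts per Ensembl gene, 1 table per library, which the authors made from poly-A libraries (Tecan Revelo, paired reads) with HISAT2 2.2.1 on GRCm39 and featureCounts 2.0.1. Strand and multimapping settings are not given in the sources used here, and the batch correction named in the methods is not visible in these counts. GENCODE mouse release 39 named 56017 of 56748 gene IDs.

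Genes were kept by filterByExpr, scaled by TMM and tested by the quasi-likelihood test of edgeR 4.0.16 (R 4.3.3, glmQLFit with its default spread) on all 8 libraries, blocked by replicate number, with Benjamini-Hochberg adjustment over all 14942 genes. The test was checked on simulated counts. DESeq2 1.42.0 and limma 3.58.1 served as alternatives. Log2 CPM used a prior count of 2. Intervals are 95% intervals from the edgeR fit, on 7.86 degrees of freedom. The spread in them comes partly from the pairs of the gene itself and partly from the other genes. An interval can therefore be narrower than the 4 pairs of that gene alone would give. Counting error is part of that spread. Reads carry no molecular identifiers.

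The series text names 4 mice for 8 samples, and that a number is a mouse is an inference from it. After subtraction of the group mean, libraries with the same number correlated at 0.825, 0.489, 0.879 and 0.765 across 11985 genes, and those of different numbers at 0.183 at most. Libraries of a group differed beyond sampling noise (chi-square per degree of freedom at least 52.6).

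Of the genes in the chosen lists outside the 10 members, those that passed the test are named, together with relatives of the family, cell type markers and the 3 nearest profiles of the members with the largest and smallest spread. The members, lists and tests were chosen with earlier results of these data known.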

Additional observations from a re-analysis of the deposited data

Results flagged for a closer look

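Among 22 groups of 4 libraries (the 10 genes and Mettl3, in each group), 8 held a library whose gap to its nearest neighbour took up more of the range of the group than Dixon's 95% critical value for 4 samples, which chance exceeds in about 1 of 20 groups. Libraries of replicate 3 account for 6 of these. Pmaip1 was at 7.76 CPM in Mettl3-RNP 3 beside 2.99 to 3.64 in the other 3, and at 8.83 CPM in Pulsed 3 beside 2.53 to 3.45. Bid was at 23.4 CPM in Mettl3-RNP 3 beside 42.8 to 46.5. Bad was at 27.8 CPM in Mettl3-RNP 3 beside 37.5 to 39.5, and at 22.8 CPM in Pulsed 3 beside 40.1 to 42.9. Mettl3 itself was at 11.2 CPM in Pulsed 3 beside 24.5 to 26.5 in the other Pulsed libraries, so the targeted transcript was also low in the control of that number. In the other 2 of these groups the library was Pulsed 1, with Bcl2l11 at 19.1 CPM beside 7.88 to 9.55 and Bak1 at 112 CPM beside 149 to 151.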

How the results depend on the processing

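The count of members past the threshold, 0 in edgeR, became 3 with DESeq2, 6 with removeBatchEffect and limma-trend, and 1 with at least 10 counts in every library, and was 0 under the other alternatives run, among them the fits that left out 1 replicate number (0 to 0). With DESeq2 the members that passed were Bcl2 at -0.39, Bcl2l1 at 0.28 and Mcl1 at 0.31. With removeBatchEffect they were Bcl2 at -0.39, Bcl2l1 at 0.27, Mcl1 at 0.30, Bcl2l11 at 0.29, Bax at 0.16 and Bak1 at -0.16, and with the stricter filter Mcl1 at 0.30. Over all alternatives the adjusted p ran from 0.00876 to 0.999 for Bcl2 and from 0.00200 to 0.999 for Mcl1. Values near 0 changed sign. Bad was at -0.02 without the block and at -0.01 with limma-voom, and ranged from -0.09 to 0.06 as replicate numbers were left out. Bid then ranged from -0.05 to 0.20, Pmaip1 from -0.03 to 0.21, Bbc3 from -0.30 to -0.06, Bax from 0.10 to 0.21 and Bak1 from -0.24 to -0.12. The cause of these shifts was not tested.

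Without the replicate block, 0 members and 0 of all genes passed (579 of all genes and 1 member at an unadjusted p under 0.05), the fitted values of Bcl2 and Mcl1 were -0.41 and 0.30, and the log2 fold change of Mettl3, -1.31, had an adjusted p of 0.744. The count over all genes, 559 in edgeR, was 308 with a fold change of at least 1.5, 1449 with DESeq2, 4564 with removeBatchEffect, 993 with every gene counted and 959 with the stricter filter. As numbers were left out it ranged from 26 (without replicate 2) to 383. The planned older estimate of the spread is the default of the installed edgeR and so is the main fit itself, and the newer estimate, added after seeing the data, passed 0 members. A prior count of 0.5 moved none of 11 mean paired differences by as much as 1 SD. The length of the longest transcript moved 16 of 26 mean shares by more than 1 SD, among them Mcl1 to 33.6% and 28.1% in Mettl3-RNP and Pulsed. The median standard error of the 10 members was 0.0963 on the log2 scale.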

Other observations

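Mitf, a transcription factor of mast cells and melanocytes, was singled out after its values had been seen. It was at 205, 159, 98.8 and 192 CPM in Mettl3-RNP 1 to 4 and at 162, 150, 74.6 and 147 CPM in Pulsed 1 to 4, higher in 4 of 4 pairs with a log2 fold change of 0.30 (SE 0.0775, adjusted p = 0.0709 by edgeR). Replicate 3 was the lowest of each group.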
